A study of Arabidopsis thaliana with 9 samples.

Results

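The oxidative pentose phosphate genes of Arabidopsis thaliana described here are 10 of the 32678 gene rows in the count tables, chosen by locus identifier. They are the glucose-6-phosphate dehydrogenases G6PD1 to G6PD6 (AT5G35790, AT5G13110, AT1G24280, AT1G09420, AT3G27300 and AT5G40760), the 6-phosphogluconate dehydrogenases PGD1, PGD2 and PGD3 (AT1G64190, AT3G02360 and AT5G41670) and the lactonase PGL3 (AT5G24400). The set is thus 9 dehydrogenases and 1 lactonase, and all 10 passed the filter on low counts that left 20288 genes for testing. RNA was sequenced from whole 7-day-old seedlings in 3 groups of 3 libraries, with about 10 seedlings pooled for each. All groups grew under constant light in liquid medium with 0.5% sucrose and with 2.5 mM ammonium succinate and no other nitrogen source. For 15 min, wild type was then given KCl in one group and KNO3 in another, and icpk was given KNO3, all at 10 mM.

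The icpk line is known as a mutant of 3 calcium-sensing kinases, CPK10, CPK30 and CPK32. It carries a CPK10 with the change M141G, which makes that kinase sensitive to a bulky inhibitor. The protocol gives this inhibitor, 3MBiP, at 10 µM for 2 min before the salt, and no label ties it to a sample. An icpk group on KCl was not analysed here. A changed nitrate response in icpk, a difference present before nitrate and an effect of the inhibitor therefore cannot be told apart. Separate cultures are not stated for the libraries of a group, so the p-values cover spread that may be technical.

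The oxidative branch of the pentose phosphate pathway takes glucose 6-phosphate through a dehydrogenase, a lactonase and a second dehydrogenase, and both dehydrogenase steps reduce NADP to NADPH. In plastids that do not photosynthesise, this NADPH reduces ferredoxin through root-type ferredoxin-NADP reductases, and ferredoxin in turn feeds nitrite reductase and glutamate synthase. Plants carry separate plastid and cytosolic forms of these enzymes, and nitrate is long known to raise several of the plastid forms in roots.

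Gene counts per library ranged from 5987352 to 19564785. In wild type KCl replicate 3, which had the lowest count, multiply aligned reads made up 80.5% of records and organelle genes took 4.89% of gene counts, both the highest of the 9 libraries. CPK30 read 3.39 ± 0.484 CPM (counts scaled to a common library total, mean ± SD, n = 3) in icpk and 27.5 ± 1.11 in wild type with KNO3, and CPK32 read 21.3 ± 3.34 and 206 ± 6.86. CPK10 read 159.7 ± 9.52 in icpk and 90.1 ± 9.79 in wild type with KNO3. CPK30 and CPK32 were thus lower in icpk than in wild type with KNO3, and CPK10 was higher. The 10 pathway genes together took 0.0689% to 0.0749% of gene counts in wild type with KCl, 0.286% to 0.311% in wild type with KNO3 and 0.160% to 0.165% in icpk with KNO3.

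The genes that moved most lie apart in the genome. Positions are those of RefSeq for TAIR10.1, since the authors' build is TAIR10 and the count tables hold no coordinates. G6PD3 lies on chromosome 1 at chr1:8609338-8612580 on the plus strand, and PGD1 on the same chromosome at chr1:23825328-23827136 on the minus strand. G6PD2 lies on chromosome 5 at chr5:4158639-4161845 on the plus strand, and PGD3 on chromosome 5 at chr5:16664674-16667390 on the minus strand. G6PD6, a cytosolic form, lies at chr5:16310663-16314811 on the plus strand. Coding sequences of G6PD2 and G6PD3 were 84.3% identical, those of PGD1 and PGD3 87.6%, and those of G6PD5 and G6PD6 85.3%, while PGD2 shared 70.7% with PGD1. Sequencing ran for 50 cycles, and at least 99.8% of the windows of 50 bases in each gene's exons occur once in the genome.

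The bases before the annotated start of the 4 genes that rose under nitrate, and of G6PD6 for contrast, are shown from 5′ to 3′ on the strand of the gene. They are taken from the RefSeq TAIR10.1 genome and end at the base before the gene start. The stretches are chr5:4158555-4158638 on the plus strand for G6PD2, where a neighbouring gene limits it to 84 bases, chr1:8609038-8609337 on the plus strand for G6PD3, chr1:23827137-23827436 on the minus strand for PGD1, chr5:16667391-16667690 on the minus strand for PGD3 and chr5:16310363-16310662 on the plus strand for G6PD6. The PGD3 stretch holds bases of another annotated gene, AT5G41675, and was not cut there. Capitals mark matches to the nitrate-responsive element half-site words TGNCCCTT, TGNCCTTT, TGNCTCTT and TGNCTTTT on either strand.
G6PD2: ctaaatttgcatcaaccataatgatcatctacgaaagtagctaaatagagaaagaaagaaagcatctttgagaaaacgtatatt
G6PD3: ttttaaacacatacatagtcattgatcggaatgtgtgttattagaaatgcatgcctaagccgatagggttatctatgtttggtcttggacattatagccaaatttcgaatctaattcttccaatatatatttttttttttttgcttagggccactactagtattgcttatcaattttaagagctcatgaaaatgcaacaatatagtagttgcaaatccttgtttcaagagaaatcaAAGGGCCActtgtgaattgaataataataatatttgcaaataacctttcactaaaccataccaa
PGD1: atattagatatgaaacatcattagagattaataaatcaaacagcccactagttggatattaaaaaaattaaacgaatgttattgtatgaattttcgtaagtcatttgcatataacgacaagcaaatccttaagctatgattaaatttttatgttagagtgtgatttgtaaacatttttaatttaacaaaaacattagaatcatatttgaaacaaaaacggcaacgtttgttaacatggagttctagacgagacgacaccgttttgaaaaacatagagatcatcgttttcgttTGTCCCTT
PGD3: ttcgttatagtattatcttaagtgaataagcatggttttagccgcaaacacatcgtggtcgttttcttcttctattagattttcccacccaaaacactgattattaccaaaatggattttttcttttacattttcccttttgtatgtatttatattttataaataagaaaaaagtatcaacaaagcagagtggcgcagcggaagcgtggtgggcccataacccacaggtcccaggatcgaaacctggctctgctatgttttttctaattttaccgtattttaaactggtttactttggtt
G6PD6: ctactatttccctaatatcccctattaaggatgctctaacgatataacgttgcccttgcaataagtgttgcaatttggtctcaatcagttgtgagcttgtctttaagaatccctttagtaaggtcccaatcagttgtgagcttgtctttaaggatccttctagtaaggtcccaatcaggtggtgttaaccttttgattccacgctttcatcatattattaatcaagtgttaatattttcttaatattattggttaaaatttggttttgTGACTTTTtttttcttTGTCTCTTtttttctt

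The half-site words occurred in the 300 bases upstream of 4 of the 10 genes, namely G6PD3, G6PD5, G6PD6 and PGD1, and in 21.3% of 27443 windows of the same length before protein-coding genes. G6PD3 held 1 match on its minus strand from 64 to 57 bases before the start, and PGD1 held 1 in the last 8 bases. G6PD6 held 2 matches, from 32 to 25 and from 16 to 9 bases before the start. G6PD2 and PGD3, which rose 7.91-fold and 10.8-fold, held no match to these letters in this window. The palindrome GAATNTTC occurred before PGD1 alone among the 10 and in 6.44% of all windows, and the core ACGTG occurred before none of the 10 and in 25.6% of all windows. A match is a run of letters and was not tested as a binding site.

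In wild type, 15 min of nitrate raised transcripts of 2 of the 4 plastid G6PDH genes and of 2 of the 3 PGD genes. G6PD3 rose 19.6-fold, PGD3 10.8-fold, G6PD2 7.91-fold and PGD1 6.50-fold. None of the cytosolic G6PDH genes, PGD2 or the lactonase PGL3 passed the test. In all, 4 of 10 genes were called higher and 0 of 10 lower at an adjusted p below 0.05 (edgeR quasi-likelihood test, Benjamini-Hochberg over 20288 genes), against 3.56% of all tested genes called higher and 2.39% called lower. The median log2 difference of the 10 was 0.26, against -0.02 over all tested genes. These are bulk samples, so fewer cells of a type and less RNA per cell cannot be told apart.

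G6PD2 and G6PD3 encode the plastid forms that are typical of tissues without photosynthesis and keep activity under reducing conditions better than the chloroplast form. G6PD3 read 15.2, 16.4 and 25.7 CPM in the KCl libraries of wild type, 371, 349 and 369 in its KNO3 libraries, and 147, 128 and 132 in icpk with KNO3. The 3 groups did not overlap, and KCl replicate 3 read highest of the KCl libraries. The log2 difference between KNO3 and KCl was 4.29 ± 0.19 (SE, adjusted p = 3.29e-07), and without KCl replicate 3 it was 4.54 ± 0.14 (adjusted p = 9.24e-07).

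G6PD2 read 39.2, 38.1 and 39.8 CPM with KCl, 312, 302 and 312 with KNO3, and 160, 141 and 165 in icpk with KNO3. The 3 groups lay apart, with little spread among the wild type libraries. Its log2 difference between KNO3 and KCl was 2.98 ± 0.10 (adjusted p = 1.93e-07), which carried the smallest p of all tested genes.

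PGD1 and PGD3 encode the 6-phosphogluconate dehydrogenases that are found in both plastids and cytosol. PGD3 read 99.9, 97.4 and 109 CPM with KCl, 1058, 1066 and 1167 with KNO3, and 615, 530.3 and 619 in icpk with KNO3. PGD1 read 84.8, 80.6 and 92.7 CPM with KCl, 518, 592 and 564 with KNO3, and 307, 266 and 345 in icpk with KNO3. For both genes the 3 groups did not overlap, with icpk between the wild type groups. The log2 difference between KNO3 and KCl was 3.43 ± 0.13 for PGD3 (adjusted p = 1.93e-07) and 2.70 ± 0.13 for PGD1 (adjusted p = 6.26e-07).

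**Figure D1:**
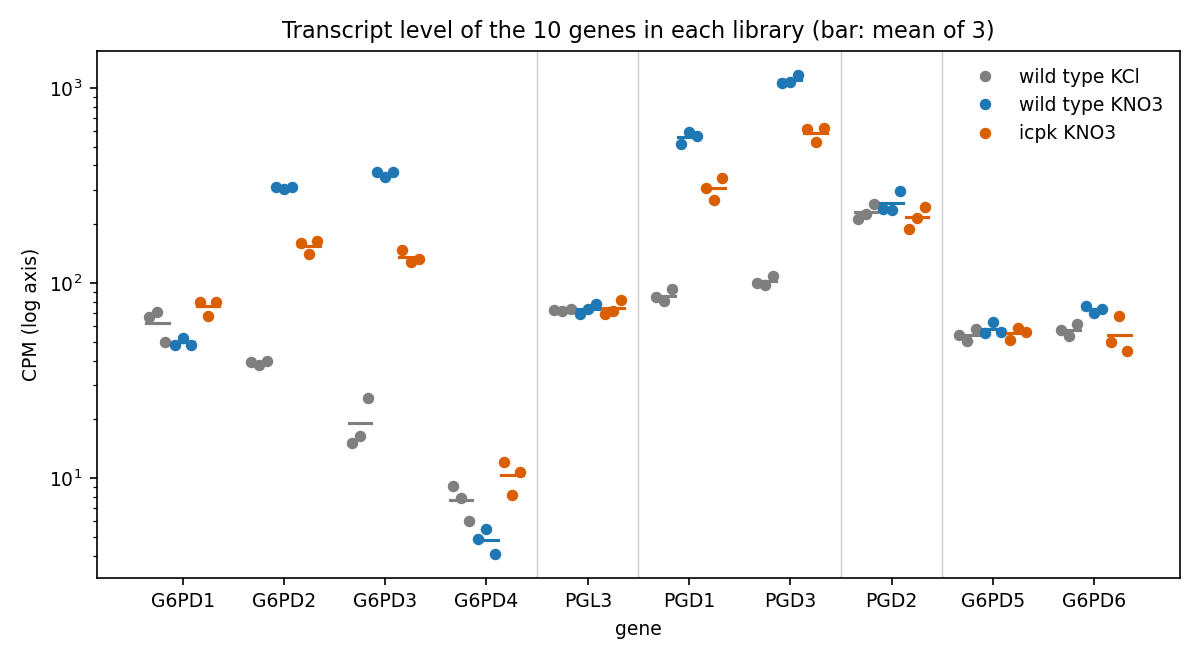
Levels of the 10 genes in CPM, on a log axis, with 1 point per library and a bar at the mean of each group of 3 libraries. G6PD2, G6PD3, PGD1 and PGD3 stand in 3 separate levels, with icpk between wild type with KCl and wild type with KNO3.

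The other plastid forms, G6PD1 and G6PD4, did not pass the test with nitrate. G6PD1 encodes the chloroplast form that thioredoxin switches off in the light. It read 66.9, 71.2 and 49.9 CPM with KCl, 48.3, 52.4 and 48.1 with KNO3, and 80.0, 67.8 and 80.0 in icpk with KNO3. Its KNO3 and KCl libraries overlapped through KCl replicate 3. The log2 difference was -0.35 ± 0.13 (adjusted p = 0.148), and without that library it was -0.47 ± 0.11 (adjusted p = 0.0441). G6PD4 is a plastid form thought to lack activity of its own and to pair with G6PD1. It read 9.14, 7.95 and 6.05 CPM with KCl, 4.84, 5.51 and 4.09 with KNO3, and 12.1, 8.20 and 10.7 in icpk with KNO3. Every KNO3 library lay below every KCl library, but the log2 difference of -0.71 ± 0.20 did not pass (adjusted p = 0.065). The authors' deposited table has G6PD4 lower with KNO3, at a log2 fold change of -0.63 and an adjusted p of 0.0219.

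The cytosolic forms G6PD5 and G6PD6, PGD2 and PGL3 did not pass it either. G6PD6, the main cytosolic isoform in many tissues, read 57.7, 53.6 and 61.4 CPM with KCl, 76.3, 70.1 and 73.3 with KNO3, and 50.0, 67.3 and 44.7 in icpk with KNO3. Every KNO3 library of wild type lay above every KCl library, and the log2 difference was 0.35 ± 0.14 (adjusted p = 0.168). G6PD5 read 50.3 to 57.9 CPM with KCl and 55.1 to 62.9 with KNO3, with a log2 difference of 0.10 ± 0.09 (adjusted p = 0.578). PGD2, the cytosolic and peroxisomal 6-phosphogluconate dehydrogenase, read 212 to 255 CPM with KCl and 236 to 297 with KNO3 (log2 difference 0.16 ± 0.14, adjusted p = 0.552). PGL3, the plastid lactonase that is needed for plant viability, read 71.9 to 73.5 CPM with KCl and 69.2 to 77.7 with KNO3 (log2 difference 0.02 ± 0.09, adjusted p = 0.94). Over the 10 genes, libraries lay wholly above those with KCl for 5 and wholly below for 1, against 12.3% and 14.1% of all tested genes.

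Under KNO3, icpk seedlings held less transcript of the 4 nitrate-raised genes than wild type, and more of G6PD1 and G6PD4. G6PD3 stood at 37.3% of the wild type level, G6PD2 at 50.3%, PGD3 at 53.6% and PGD1 at 54.9%. G6PD1 stood at 153% and G6PD4 at 213%. In all, 2 of 10 genes were called higher and 5 of 10 lower in icpk, against 11.3% and 11.4% of all tested genes. The libraries of the 2 groups did not overlap for the same counts, 2 higher and 5 lower, against 19.8% of tested genes in each direction. The wild type libraries with KNO3 also enter the comparison with KCl, so their spread moves the 2 comparisons in opposite directions.

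The log2 difference between icpk and wild type with KNO3 was -1.42 ± 0.16 for G6PD3 (adjusted p = 0.000738) and -0.99 ± 0.09 for G6PD2 (adjusted p = 0.000304). For PGD3 it was -0.90 ± 0.12 (adjusted p = 0.00112), and for PGD1 -0.87 ± 0.12 (adjusted p = 0.00152). In the 4 genes every icpk library lay below every wild type library with KNO3. G6PD1 differed by 0.61 ± 0.13 (adjusted p = 0.00838) and G6PD4 by 1.09 ± 0.20 (adjusted p = 0.00452), with every icpk library above every wild type library. Without replicate 3 of every group, G6PD4 no longer passed (log2 difference 0.94, adjusted p = 0.0504).

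G6PD6 was called lower in icpk at a log2 difference of -0.44 ± 0.14 (adjusted p = 0.0409), but this call did not hold. With the replicate number as a block it was -0.45 ± 0.14 (adjusted p = 0.0541). It was also lost with the 6 libraries of the comparison alone (adjusted p = 0.0668), without any 1 of the wild type libraries (0.0526 to 0.123) and without icpk replicate 1 (0.104) or 3 (0.111). Without icpk replicate 2, which read 67.3 CPM against 50.0 and 44.7 in the others, the difference was -0.63 ± 0.10 (adjusted p = 0.00583). G6PD5 differed by -0.07 ± 0.09 (adjusted p = 0.652), PGD2 by -0.25 ± 0.14 (adjusted p = 0.214) and PGL3 by 0.01 ± 0.09 (adjusted p = 0.937).

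**Figure D2:**
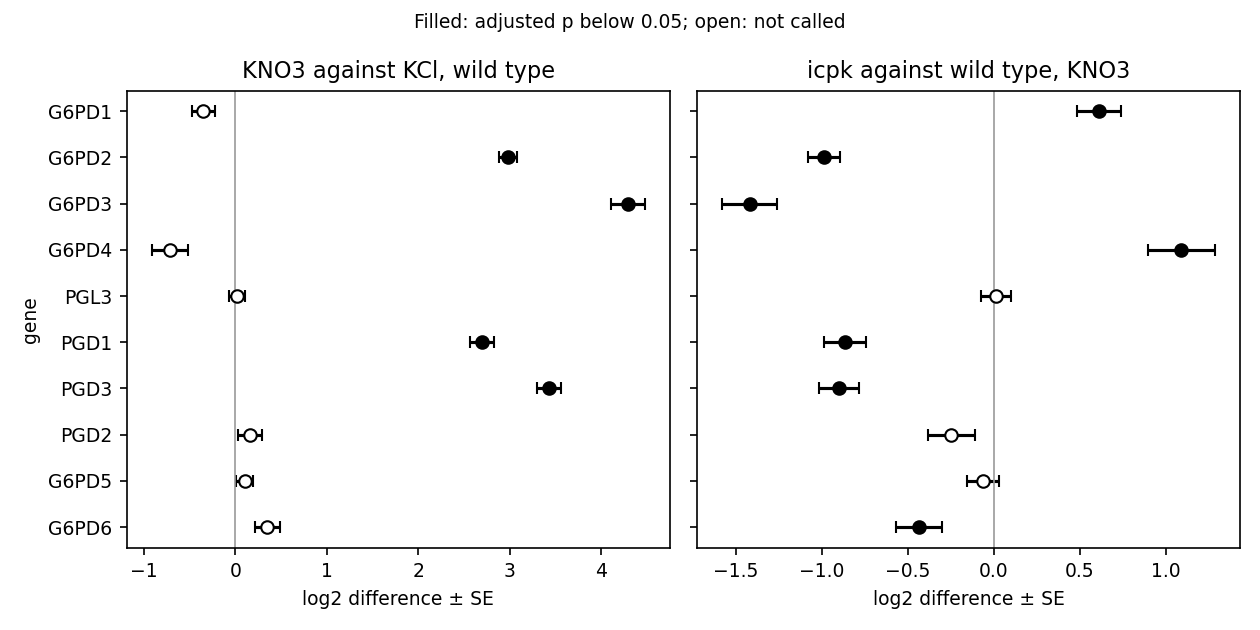
Log2 differences of the 10 genes with their standard errors, KNO3 against KCl in wild type on the left and icpk against wild type with KNO3 on the right, where filled points passed an adjusted p of 0.05. G6PD2, G6PD3, PGD1 and PGD3 lie far right on the left panel and left of 0 on the right panel, while G6PD1 and G6PD4 lie right of 0 on the right panel.

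Set beside wild type with KCl, icpk with KNO3 still held more of the 4 genes. G6PD3 was 7.32-fold higher (log2 difference 2.87 ± 0.18, adjusted p = 6.26e-06), PGD3 5.77-fold (2.53 ± 0.12, adjusted p = 2.23e-06), G6PD2 3.98-fold (1.99 ± 0.10, adjusted p = 2.17e-06) and PGD1 3.56-fold (1.83 ± 0.13, adjusted p = 1.4e-05). These 4 of 10 genes were called higher and 0 of 10 lower, against 3.15% and 3.84% of all tested genes. Libraries did not overlap for the same 4 genes, all higher, against 14.1% of tested genes higher and 13.6% lower. This comparison shares its libraries with the other 2 and is set beside them only. G6PD1 (log2 difference 0.27, adjusted p = 0.253) and G6PD4 (0.38, adjusted p = 0.287) were not called in it.

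Plastid and cytosolic forms were compared within each library as CPM per kb of coding sequence, so that levels of different genes could be added. Reads in untranslated exon parts may count too, and exon bases exceed coding bases unevenly. PGD3 has 2661 exon against 1464 coding bases, PGD1 1809 against 1464, PGD2 2186 against 1461 and G6PD3 2154 against 1800. Sums, shares and orders between genes hold for coding length, and division by exon length was not tried. Plastid G6PDH transcripts (G6PD1 to G6PD4) stood at 1.08 ± 0.127 times the cytosolic ones (G6PD5 and G6PD6) in wild type with KCl (SD, n = 3), at 5.05 ± 0.143 times with KNO3 and at 3.24 ± 0.631 times in icpk with KNO3. The libraries read 1.09, 1.20 and 0.944 with KCl, 5.10, 4.89 and 5.16 with KNO3, and 3.64, 2.52 and 3.57 in icpk, so the groups did not overlap and icpk replicate 2 was lowest of its group. Plastid forms thus made up 51.7 ± 2.98%, 83.5 ± 0.395% and 76.1 ± 3.89% of G6PDH transcripts. The plastid sum was 72.6, 405 and 211 CPM per kb in the 3 groups, while the cytosolic sum was 67.9, 80.2 and 66.3. The ratio over members chosen with earlier results known was not tested.

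Among the 6-phosphogluconate dehydrogenases, PGD1 and PGD3 together stood at 0.816 ± 0.0453 times PGD2 in wild type with KCl, at 6.46 ± 0.606 times with KNO3 and at 4.16 ± 0.637 times in icpk with KNO3. PGD1 and PGD3 together made up 44.9%, 86.5% and 80.4% of these transcripts. These genes serve both compartments, so this ratio sets dual-targeted forms against a form outside the plastid. Summed over all isoforms, the first dehydrogenase step read 140 ± 1.53 CPM per kb with KCl, 485 ± 7.48 with KNO3 and 278 ± 7.29 in icpk. The second step read 286 ± 22.4, 1307 ± 73.5 and 759 ± 67.7 CPM per kb. PGL3, the lactonase between them, read 74.3 ± 0.812, 75.3 ± 4.35 and 75.9 ± 6.39 CPM per kb.

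**Figure D3:**
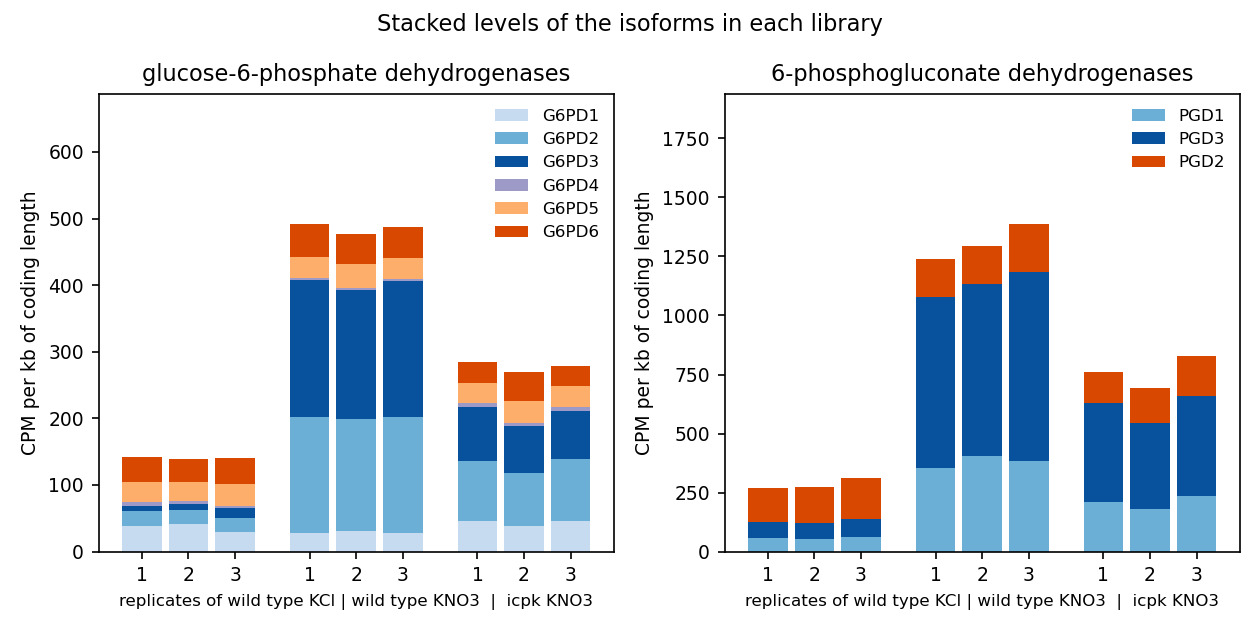
Levels of each isoform in CPM per kb of coding sequence, stacked within each of the 9 libraries, for the first and the second dehydrogenase step. G6PD2 and G6PD3 fill most of the G6PDH bars with KNO3, and PGD3 fills most of the 6-phosphogluconate dehydrogenase bars with KNO3, in wild type and in icpk.

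The leading isoform changed with the salt. In wild type with KCl, G6PD6 (26.5 ± 1.60% of G6PDH transcripts), G6PD1 (25.8 ± 4.77%) and G6PD5 (21.8 ± 1.38%) led the first step, and with KNO3 G6PD3 led at 41.6 ± 0.745% with G6PD2 at 35.5 ± 0.156%. G6PD3 made up 7.54 ± 2.25% with KCl and 27.1 ± 1.37% in icpk with KNO3, where G6PD2 led at 31.2 ± 1.95%. In the second step PGD2 led with KCl at 55.1 ± 1.35%, and PGD3 led with KNO3 at 57.4 ± 0.984% and in icpk at 52.9 ± 2.16%.

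Ordered by level per kb in wild type with KCl, PGD2 was highest at 158 CPM per kb, followed by PGL3 at 74.3, PGD3 at 69.7, PGD1 at 58.8, G6PD6 at 37.2, G6PD1 at 36.2, G6PD5 at 30.7, G6PD2 at 21.8, G6PD3 at 10.6 and G6PD4 at 4.04. Neighbours in this order that overlapped were PGL3 with PGD3, G6PD6 with G6PD1, and G6PD1 with G6PD5. With KNO3 the order was PGD3 at 749, PGD1 at 381, G6PD3 at 202, PGD2 at 176, G6PD2 at 172, PGL3 at 75.3, G6PD6 at 47.3, G6PD5 at 32.9, G6PD1 at 28.7 and G6PD4 at 2.52 CPM per kb. There, G6PD3 overlapped with PGD2 and PGD2 with G6PD2. In icpk with KNO3, PGD3 at 402, PGD1 at 209 and PGD2 at 148 CPM per kb led without overlap, and G6PD4 was again lowest at 5.42. These orders hold for coding length and could differ with exon length, which was not tried.

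Whole seedlings hold root and shoot tissue, and markers of both were measured beside these genes. The summed level of 15 root markers was 280 to 355 CPM in wild type with KCl, 321 to 467 with KNO3 and 218 to 321 in icpk with KNO3. That of 15 shoot photosynthesis markers was 51553 to 62620, 32106 to 46989 and 45684 to 69532 CPM. No marker was at 0 in any library. Of the root markers, 0 of 15 were called with KNO3 in wild type (median log2 difference 0.33) and 5 of 15 were called lower in icpk (median -0.50). The count with KNO3 was 2 without wild type KNO3 replicate 2 and 1 without any 1 of the icpk libraries. The count in icpk fell to 2 without wild type KNO3 replicate 1 or 3 or icpk replicate 1 or 3, and to 3 without any 1 of the KCl libraries. It rose without icpk replicate 2, where MYB36 and PER7 joined the 5, and without wild type KNO3 replicate 2, where PER7 joined them. Of the shoot markers, 1 of 15 was called lower with KNO3 (median -0.51) and 3 of 15 higher in icpk (median 0.53). The single call with KNO3, CAB3, was lost in 8 of 17 alternatives, the replicate block among them, and 4 markers were called without wild type KNO3 replicate 2. The count in icpk fell to 0 without wild type KNO3 replicate 1 or 3 or icpk replicate 1 or 3 and to 1 without wild type KCl replicate 3, and it rose to 5 without wild type KNO3 replicate 2 and to 9 without icpk replicate 2. In these 2 comparisons, which share the wild type libraries with KNO3, the 4 nitrate-raised genes differed with the sign of the root marker medians. G6PD1 and G6PD4 differed with the sign of the shoot marker medians. With KNO3 in wild type, the 4 genes rose by 2.70 to 4.29, against a root marker median of 0.33. Between icpk with KNO3 and wild type with KCl, the root marker median was -0.22 and the shoot marker median 0.02. The 4 genes differed there by 1.83 to 2.87, and G6PD1 and G6PD4 by 0.27 and 0.38. The log2 differences of single root markers in icpk against wild type with KNO3 reached -1.28 for RHS18, -1.14 for RSL4 and -0.97 for XTH14. Of the 10 root markers not called there, SCR, SHR, CASP1 and CASP2 read -0.04, -0.04, -0.06 and -0.21. The others read -0.21 for RHD6, -0.27 for CASP5, -0.41 for PER57, -0.49 for MYB36, -0.51 for EXPA18 and -0.71 for PER7. In icpk replicate 2, which had the lowest shoot sum of its group, G6PD1 and G6PD4 were lowest and G6PD6 was highest. The 4 nitrate-raised genes were lowest in that library too, while its root sum was 321 CPM against 218 and 318 in the other icpk libraries. The part of tissue proportions in these results was not tested.

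The genes around the oxidative branch were followed through lists chosen from general knowledge, with earlier results of these data known. Of 11 genes of the non-oxidative branch, 1 was called higher with KNO3, against 3.56% of all tested genes. This was the transaldolase TRA2, which read 162 ± 13.4 CPM with KCl and 383 ± 25.1 with KNO3 (log2 difference 1.24 ± 0.11, adjusted p = 4.35e-05) and 239 ± 12.3 in icpk (-0.68 ± 0.10 against wild type, adjusted p = 0.00225). Of 11 genes of sugar phosphate exchange and hexose phosphate entry, 1 was called higher with KNO3. This was PGI1, the plastid phosphoglucose isomerase that makes glucose 6-phosphate, at 163 ± 5.45 CPM with KCl and 286 ± 22.5 with KNO3 (log2 difference 0.82 ± 0.10, adjusted p = 0.00043), and it was lower in icpk (-0.48 ± 0.09, adjusted p = 0.00695). GPT2, a glucose 6-phosphate translocator of plastids, read 23.0 ± 7.54 CPM with KCl, 19.1 ± 3.25 with KNO3 and 3.49 ± 1.69 in icpk (log2 difference -2.50 ± 0.33 in icpk against wild type with KNO3, adjusted p = 0.0012).

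Of the ferredoxin reduction list, 3 of 7 tested genes were called higher with KNO3 and 0 lower, and FD4 was at 0 counts and untested. These were the root ferredoxin-NADP reductases RFNR1 (42.4 ± 0.637 to 351 ± 24.7 CPM, log2 difference 3.05 ± 0.10) and RFNR2 (65.3 ± 9.13 to 452 ± 39.3 CPM, 2.80 ± 0.15), and the root-type ferredoxin FD3 (112 ± 20.4 to 519 ± 53.6 CPM, 2.22 ± 0.14). Their adjusted p values were 1.93e-07, 1.46e-06 and 5.05e-06. In icpk the same 3 genes were lower, by -1.02 ± 0.10 (adjusted p = 0.000304), -1.01 ± 0.14 (0.00152) and -0.79 ± 0.14 (0.00387), within 2 higher and 3 lower of 7 in this list. The leaf-type reductases FNR1 and FNR2 were not called with KNO3. Nitrite reductase, NIR1, read 210 ± 44.0 CPM with KCl, 1977 ± 95.1 with KNO3 and 1140 ± 59.0 in icpk. Its log2 difference was 3.24 ± 0.18 with KNO3 (adjusted p = 1.46e-06) and -0.79 ± 0.16 in icpk (adjusted p = 0.00764). The NADH-dependent glutamate synthase GLT1 rose by 0.79 ± 0.14 (adjusted p = 0.00769). In icpk it was lower by -0.57 ± 0.14 (adjusted p = 0.017, and 0.0607 without wild type KNO3 replicate 1). Of this list's 5 genes that use ferredoxin or NADH, 2 were called higher with KNO3 and 3 lower in icpk, where NIR1 alone remained without wild type KNO3 replicate 1.

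Of the 11 other NADPH-forming enzymes and NAD kinases, 0 were called with KNO3, where the median log2 difference was -0.03, and 2 were called higher and 1 lower in icpk. Both higher calls, mICDH and NP-GAPDH, were lost without wild type KNO3 replicate 1 (adjusted p = 0.0576 and 0.0775), and NP-GAPDH also without wild type KNO3 replicate 3 or icpk replicate 1 or 3. Of the 4 other lactonases, 0 were called with KNO3, and in icpk 1 was called higher, PGL5 (log2 difference 1.24 ± 0.26, adjusted p = 0.00898), and 1 lower, PGL4 (-0.73 ± 0.18, adjusted p = 0.0156, and 0.051 without wild type KNO3 replicate 3). Without replicate 3 of every group, PGL5 (adjusted p = 0.0867) and PGL4 (0.0527) no longer passed. In icpk, 4 genes of the non-oxidative branch, 2 of hexose phosphate entry and 2 of ferredoxin reduction were called higher, and all 8 of these calls were lost without wild type KNO3 replicate 1 (adjusted p from 0.056 to 0.139). Of the 8, 7 were lost without wild type KNO3 replicate 3, 7 without icpk replicate 3 and 5 without icpk replicate 1. None of the 10 calls of the 4 nitrate-raised genes, TRA2, PGI1, RFNR1, RFNR2, FD3 and NIR1 with KNO3 was lost under any of 17 alternatives. The GLT1 call with KNO3 was kept in all 17 too, with an adjusted p of up to 0.0476.

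**Figure D4:**
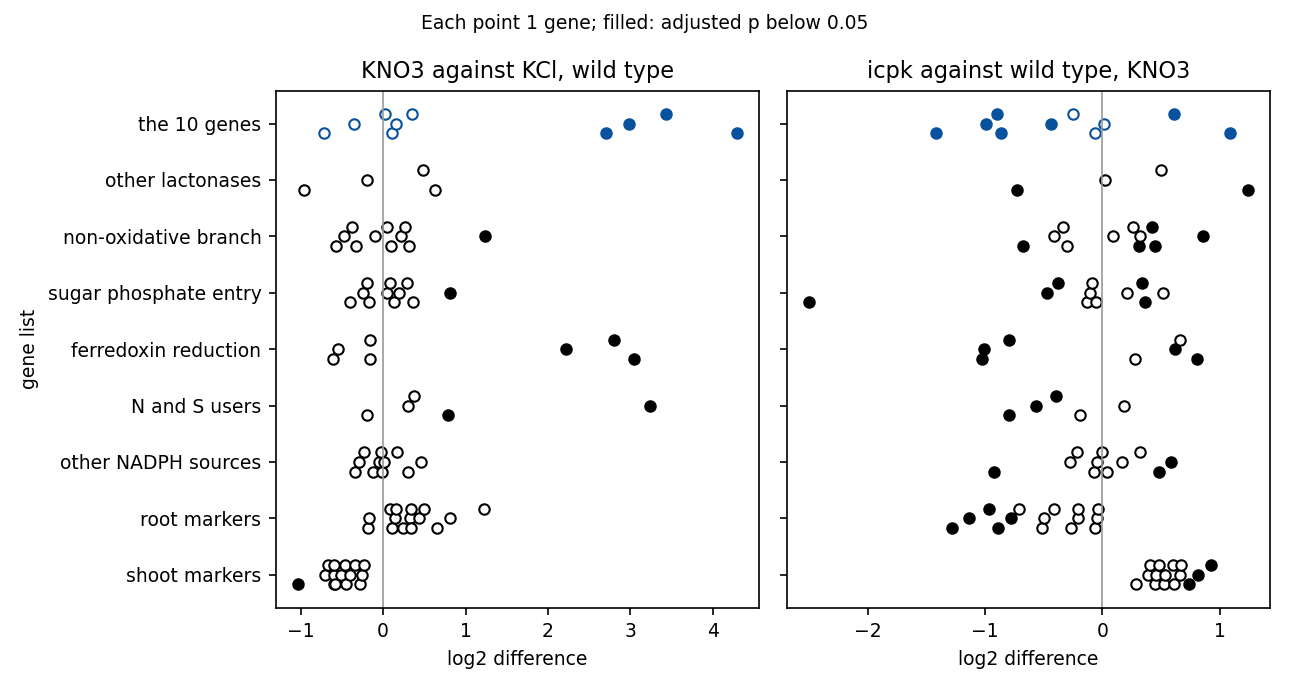
Log2 differences of each gene among the 10 (blue), in the lists around the oxidative branch and in the marker lists, 1 point per gene and 1 row per list, KNO3 against KCl in wild type and icpk against wild type with KNO3, with filled points for genes that passed an adjusted p of 0.05. The filled points right of 0 in the first comparison, outside the 10 genes, are TRA2, PGI1, RFNR1, RFNR2, FD3, NIR1 and GLT1, and all of these lie left of 0 in the second. Both comparisons use the wild type libraries with KNO3, with opposite sign.

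Across the 9 libraries, the genes with the nearest pattern were found by the root mean square difference of centred log2 CPM. Nearest to G6PD2 was RFNR1 at 0.0811, then the nitrate transport protein WR3 at 0.108 and a bZIP protein (AT5G04840) at 0.12. Nearest to PGD3 were AT1G77400 at 0.126, UPM1 at 0.131, which makes the sirohaem precursor of nitrite reductase, and NIR1 at 0.151. PGD1 had WR3 at 0.163, AT5G04840 at 0.193 and RFNR1 at 0.203 as its nearest genes, and G6PD3 had a phosphoglycerate mutase (AT1G78050) at 0.273, BT1 at 0.38 and AT3G44800 at 0.4. Nearest to G6PD4 were AT4G09040 at 0.111, AT3G12930 at 0.112 and PDE312 at 0.115, and nearest to G6PD1 were AGC1.5 at 0.044, EMB2730 at 0.0587 and PPR2 at 0.0588. Among the 10 genes, the most alike pairs were G6PD5 with PGL3 at 0.0981 and G6PD2 with PGD1 at 0.138, while G6PD2 and G6PD3 differed by 0.574. This measure depends on the size of a change as well as its direction. With KNO3 in wild type, G6PD5 and PGL3 moved little (log2 difference 0.10 and 0.02), and G6PD2 and G6PD3 both rose (2.98 and 4.29). G6PD1 and G6PD4 differed by 0.232. These values describe the 9 libraries, which share the 3 groups.

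The library kit does not mark strand, so reads from overlapping antisense genes cannot be told apart. Exons of G6PD3 share 76 bases with AT1G24290, which read 3.58 to 5.17 CPM on average in the 3 groups, and those of PGD1 share 56 bases with AT1G64185, at 1.31 to 2.06 CPM. Exons of G6PD4 share 444 bases, 19.7% of their length, with a long non-coding RNA that held at most 1 count in a library. Exons of PGD1 also share 578 bases, 31.95% of their length, with the antisense long non-coding RNA AT1G08657. Those of G6PD3 share 44 bases with the antisense long non-coding RNA AT1G05867. Neither RNA has a gene row among the counts, so its level could not be read. Any reads from these RNAs in the shared bases could count for PGD1 or G6PD3.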

How the data were processed

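RNA sequencing counts were used for 9 libraries of Arabidopsis seedlings, grouped by sample title. The authors deposited raw counts per gene, 1 table per library, and the submitters' processing notes name TopHat, HTSeq, DESeq2 and build TAIR10, without versions or settings. The authors also deposited 2 comparison tables, which per the file headers hold a log2 fold change, scores (its standard error and a test statistic) and p-values, among other columns. Only values of the 10 genes were taken from them.

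The 5 summary rows that name no gene took 26.7% to 84.3% of records and were left out. Counts were scaled with TMM factors, filtered with filterByExpr (minimum count 10) and tested by the quasi-likelihood method of edgeR 4.0.16 in R 4.3.3, with a mean per group over all 9 libraries and Benjamini-Hochberg adjustment. CPM uses TMM-scaled library sizes, and per-kb values divide by coding length. Standard errors are the log2 difference over the square root of F. The procedure was tested on simulated data, and replicates of a group differed beyond sampling noise (chi-square).

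Between wild type and icpk with KNO3, deviations from the group mean correlated at 0.18, 0.12 and 0.31 between libraries with the same number, so the numbers may pair them, though no label says what they share. The members and gene lists were chosen with earlier results of these data known. The genes named are the 10 members, the 3 kinases, up to 4 called genes per list by smallest p, and the 3 genes nearest to each member in pattern, and not all are printed. Also named, outside this rule, are FNR1, FNR2, the untested FD4, the 10 root markers not called in icpk against wild type with KNO3, and neighbouring genes. Alternatives were RLE scaling, DESeq2 (1.42.0), limma voom (3.58.1), no low-count filter, the 6 libraries of a comparison alone, a replicate block, library sizes without organelle genes, and leaving out libraries.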

Additional observations from a re-analysis of the deposited data

How the results depend on the processing

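Among the 10 genes and 17 alternatives, G6PD2, G6PD3, PGD1 and PGD3 kept their calls in all 3 comparisons. Their log2 differences with KNO3 ranged over 2.97 to 3.01, 4.15 to 4.54, 2.65 to 2.76 and 3.38 to 3.48. The number of genes called lower with KNO3 was 0, and it became 1 with DESeq2 (G6PD4, log2 difference -0.70, adjusted p = 0.0375), and without single libraries it ranged from 0 to 1, with G6PD1 called without wild type KCl replicate 3 (-0.47, 0.0441) and G6PD4 without wild type KNO3 replicate 2 (-0.83, 0.0466). The number called higher became 5 with the 6 libraries of the comparison alone (G6PD6, 0.37, adjusted p = 0.0456). The number called higher in icpk was 2, and it became 1 without replicate 3 of every group. G6PD6 in icpk lost its call in 11 of 17 alternatives, and the cause was not tested. No compartment ratio (45 alternative values) or level (30) moved by more than its spread between replicates. Counts over all tested genes moved more: those lower with KNO3 ranged from 125 without wild type KNO3 replicate 1 to 1231 without replicate 2 (485 in the full fit), and those higher in icpk from 643 without replicate 3 of every group to 2402 with the replicate block (2286). Between KCl and KNO3 in wild type, same-numbered libraries correlated at -0.036, 0.16 and 0.3. The libraries of replicate 3 correlated best with each other, and not every other library correlated best with its own number. These values cannot decide whether the numbers pair the libraries there. The replicate block gave 711 higher and 532 lower in place of 722 and 485. The block kept 4 members higher in that comparison and gave 4 in place of 5 lower in icpk. The lowest member count was 33, for G6PD4 in wild type KCl replicate 3.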
